A study of Rattus norvegicus with 4 samples.

Results

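The question addressed here was whether microvessels respond to the inhibitor A83-01 in the same way on a stiff as on a soft extracellular matrix. For each gene the response on soft matrix (soft with A83-01 against soft) was subtracted from the response on stiff matrix (stiff with A83-01 against stiff), both as log2 ratios. All genes with at least 1 CPM (the count scaled to library size) in at least 1 of the 4 libraries were taken, 13634 of the 23608 gene entries in all. By its highest value, Rnf212 lay just outside this minimum at 0.998 CPM. Each matrix, soft or stiff, was sampled without and with A83-01, giving 4 groups of 1 library. All 4 held wild-type primary rat microvessels, vascular cells taken from soft connective tissue under the skin. The labels give neither the stiffness of the matrices nor the dose or duration of A83-01, nor do they say how many animals gave cells. The series' stated aim concerns the effects of stiffness and of the inhibitor on microvessels and on the conversion of pericytes into myofibroblasts.

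TGF-beta ligands are deposited in the matrix as latent complexes, and cells that pull on a stiff matrix can release them. The active ligand brings type II and type I receptor kinases together, the type I kinase phosphorylates SMAD proteins, and these enter the nucleus and drive genes of matrix, contraction and feedback. A83-01 is a small molecule that blocks the type I kinases used by TGF-beta, activin and nodal. Pericytes are mural cells that wrap capillaries, and under TGF-beta and stiff surroundings they can become contractile, collagen-producing myofibroblasts.

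With 1 library per group there is no replicate check and no test of any difference. Each value compares these libraries, and the 95% intervals in parentheses cover counting error only. Total counts ranged from 32271844 to 33416200 per library, and 3 counts corresponded to between 0.0842 and 0.103 CPM. Endothelial markers were present in all 4 libraries, with summed levels of 2257 to 3532 CPM over 18 genes and none at 0. Pericyte and mural markers summed to between 4296 and 5885 CPM over 16 genes, and fibroblast markers to between 5022 and 26480 CPM over 15 genes. Skeletal muscle and keratinocyte markers stayed under 10 CPM in sum. The labelled vascular cell type was thus matched by its defining markers, together with many fibroblast transcripts. The names of both stiff libraries take another form than those of both soft libraries, so a separate preparation and the matrix cannot be told apart. In whole-culture RNA, fewer cells of a type and less RNA per cell cannot be told apart either.

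The inhibitor response was broader on stiff matrix. With A83-01, 1064 genes were up by 2-fold or more and 609 down by as much on stiff, against 297 up and 332 down on soft, each with a counting interval excluding equality. The response was at least 2-fold higher on stiff than on soft, with an interval excluding 0, for 846 genes (6.21% of those kept), and at least 2-fold lower for 436 genes (3.2%). The median difference over all genes was 0.02 on the log2 scale, with a 5th percentile of −0.82 and a 95th of 1.16. Counts of list members past 2-fold are to be read beside the 6.21% and 3.2%, and counts above or below 0 beside this median. Of the genes that differed, 66% had the higher response on stiff. Scaling by total counts in place of TMM (trimmed mean of M-values, which sets the bulk of genes level) moved the median difference by 0.272 and this share to 85.1%. The deposited FPKM values (counts per length and library size) moved them by 0.291 and to 85.3%. All differences below are therefore relative to the bulk of genes, and their sign under total-count scaling is given where it bears on a group.

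Genes were placed in classes. A gene responded on stiff alone when it differed at least 2-fold with A83-01 on stiff, by under 1.41-fold on soft, and by at least 2-fold between both responses, on the log2 scale with a prior count of 2. By this rule 395 genes (2.9%) were higher and 152 (1.11%) lower with A83-01 on stiff alone. The mirror rule gave 29 genes (0.213%) higher and 39 (0.286%) lower on soft alone. Opposite directions, with at least 1.41-fold either way, were seen for 95 genes (0.697%) higher on stiff and lower on soft, and for 54 (0.396%) lower on stiff and higher on soft. A further 176 genes (1.29%) were at least 2-fold higher and 189 (1.39%) at least 2-fold lower on both matrices. These thresholds divide a continuous range of values, as the plot of both responses shows.

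**Figure D1:**
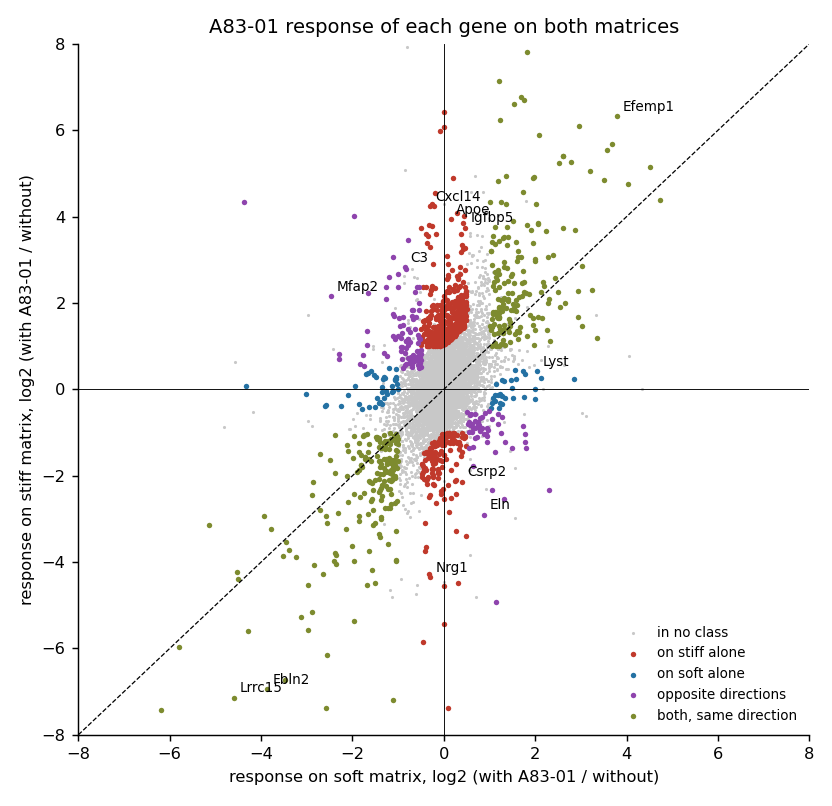
Response to A83-01 of each of 13634 genes on soft (horizontal axis) and stiff matrix (vertical axis), both as log2 ratios with against without A83-01, coloured by class; the dashed line marks equal responses. The 395 genes higher on stiff alone form the dense block above the centre, while the 29 and 39 genes of soft alone are few points near the horizontal axis.

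For 444 of the 1282 genes that differed, 1 library stood at least 2-fold apart from the nearest of the other 3, which lay within 2-fold of each other. The stiff library was that library from below for 135 genes and from above for 70. The library of stiff with A83-01 stood above the others for 144 genes and below them for 49. Both soft libraries were seldom the one apart, with 8 to 15 genes in each direction. Among the genes higher on stiff alone, 98 had the stiff library lowest by itself and 122 had stiff with A83-01 highest by itself. For the 98, the rule itself places stiff with A83-01 within 2-fold of both soft libraries.

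Secreted factors led the genes that were higher with A83-01 on stiff alone. Levels below are in the order soft, soft with A83-01, stiff, stiff with A83-01. Cxcl14, a chemokine of skin and connective tissue, stood at 46.7, 38, 4.27 and 81.6 CPM. Its response was 19.1-fold higher (16 to 23.1) on stiff and 1.23-fold lower (1.14 to 1.32) on soft, a log2 difference of 4.53 (4.27 to 4.83). Both soft libraries were near each other, and the stiff library was the lowest and its A83-01 partner the highest. Ptn, the heparin-binding growth factor pleiotrophin, stood at 57.6, 50, 6.98 and 135 CPM, with the same order and a difference of 4.46 (4.25 to 4.70).

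Apoe, the lipid carrier apolipoprotein E, was among the most abundant of these genes, at 5426, 6029, 295 and 4540 CPM. The stiff library alone was low, 15.4-fold higher (15 to 15.7) with the inhibitor, while on soft the level was 1.11-fold higher (1.1 to 1.12). Cxcl12, the stromal chemokine that retains CXCR4-bearing cells, gave 915, 1249, 41 and 665 CPM and a difference of 3.57 (3.48 to 3.66). Here too the stiff library was the one that stood apart. Igfbp5, an insulin-like growth factor binding protein of the matrix, behaved otherwise, at 245, 337, 91.3 and 1225 CPM: the highest library, well above the next, was stiff with A83-01. The aminopeptidase gene Lvrn gave 44.3, 54.1, 1.58 and 28 CPM and the galectin gene Lgals9 6.42, 5.73, 2.82 and 34.7 CPM. The stiff library was lowest for both, and for Lgals9 stiff with A83-01 also lay well above the soft libraries. Among scarcer transcripts, the oxysterol hydroxylase gene Cyp39a1 had 3 counts in stiff and 135 with A83-01, a ratio of 36.7 (12.3 to 180.2), and the G-protein regulator gene Rgs7 stood at 2.72, 2.12, 0.206 and 3.09 CPM. C4a is described with complement below.

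Genes lower with A83-01 on stiff alone included a growth factor, transcription factors and proteases. Of the 152, 75 reached 10 CPM in at least 1 library. Nrg1, the ErbB-receptor ligand neuregulin, stood at 2.03, 1.64, 8.02 and 0.337 CPM and was 23.8-fold lower (13.4 to 46.8) on stiff but 1.24-fold lower (0.855 to 1.8) on soft. Lef1, a transcription factor that acts with beta-catenin in Wnt signalling, stood at 2.87, 2.18, 10.2 and 0.757 CPM, with a difference of −3.25 (−4.04 to −2.61). For both genes stiff was the highest library and stiff with A83-01 the lowest. Csrp2, a LIM protein of smooth muscle, stood at 18.3, 24.1, 70.8 and 16 CPM. In Csrp2 the stiff library alone stood out, and with A83-01 its level lay near that of both soft libraries. Mmp13, an interstitial collagenase, stood at 18.4, 19.7, 6.78 and 1.4 CPM and was 4.83-fold lower (3.53 to 6.73) on stiff. The transcription factor genes Bcl11b and Myrf differed by −2.95 (−4.05 to −2.12) and −2.36 (−2.69 to −2.06). The protease inhibitor gene Cst7 differed by −3.88 (−5.00 to −3.11) and the phosphatase gene Impad1 by −2.28 (−2.54 to −2.04). In both, the low library was stiff with A83-01. Cpne4 and Mmp16 had 100 and 38 counts in stiff and 0 with A83-01, at least 40.9-fold and at least 15.5-fold lower against 3 counts in that library.

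Responses on soft alone were fewer. The highest ratio among the 10 leading genes was that of Lyst, a regulator of lysosome size, at 6, 25, 22.5 and 30.2 CPM. It was 4.17-fold higher (3.57 to 4.89) with A83-01 on soft and 1.34-fold higher (1.22 to 1.48) on stiff. The soft library was the low one. Nqo1, a quinone reductase of the oxidative stress response, stood at 54.3, 123, 119 and 109 CPM, and Scd, a desaturase of fatty acid synthesis, at 8.99, 21.2, 37.7 and 30.5 CPM. In both genes, soft was again the low library, and soft with A83-01 lay nearer the levels on stiff. Steap3, an iron reductase, stood at 15.8, 45.4, 33.7 and 29.6 CPM. Adgrd1, an adhesion G-protein-coupled receptor, at 31.9, 77.3, 26.1 and 20.7 CPM, and Itpr3, a calcium channel of the endoplasmic reticulum, at 40.1, 83.7, 32.9 and 26.4 CPM, instead had soft with A83-01 as the high library. Zdhhc12, Parm1, Itgbl1 and Opn3 had differences from −1.65 to −1.29.

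Genes lower on soft alone included a complement regulator and matrix genes. Cfi, complement factor I, a protease that inactivates complement fragments, stood at 11.8, 3.76, 4.44 and 3.31 CPM and was 3.15-fold lower (2.57 to 3.88) on soft and 1.34-fold lower (1.04 to 1.74) on stiff. Soft without inhibitor was the high library, and the other 3 lay close together. Among matrix genes, Spon2, a secreted spondin, stood at 36.6, 7.67, 16.9 and 13 CPM, Fndc1, a fibronectin-domain protein, at 172, 68.7, 137 and 161 CPM, and Fmod, the collagen-binding proteoglycan fibromodulin, at 1.88, 0.448, 6.09 and 6.48 CPM. For Fndc1 and Fmod, soft with A83-01 was the lowest library. Chrd, the BMP antagonist chordin, stood at 2.03, 0.686, 10.3 and 12.5 CPM, with both stiff libraries above both soft ones. Gna14, Nupr1l1, Setbp1, Rem1 and Fuom had differences from 1.27 to 2.07.

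Elastic fibre and complement genes were among those that moved in opposite directions. Mfap2, a glycoprotein of fibrillin microfibrils, stood at 4.42, 0.746, 0.723 and 3.42 CPM. It was 4.74-fold higher (2.97 to 7.93) with A83-01 on stiff and 5.93-fold lower (3.86 to 9.45) on soft. Soft and stiff with A83-01 were the high libraries, and the others were low. Eln, elastin itself, showed the reverse, at 1.08, 2.03, 66.3 and 8.84 CPM, 7.5-fold lower (6.66 to 8.48) on stiff and 1.89-fold higher (1.24 to 2.91) on soft. Its stiff library was far above the rest, and the soft libraries held few counts (36 and 68).

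C3, the central complement protein, stood at 696, 387, 1.14 and 8.47 CPM. The inhibitor response was 7.46-fold higher (5.2 to 11) on stiff and 1.8-fold lower (1.76 to 1.84) on soft, but both stiff levels lay far below both soft ones. F5, coagulation factor V, had the same arrangement at 41.8, 18.2, 0.172 and 1.35 CPM. Sfrp1, a secreted Wnt antagonist, stood at 291, 136, 39.9 and 134 CPM, so that with A83-01 both matrices were nearly level. Ntrk2, a neurotrophin receptor, stood at 55.6, 35.8, 7.33 and 35.2 CPM and was also nearly level with A83-01. Cxcl13, a B-cell chemokine, stood at 298, 184, 34.4 and 112 CPM, and Ramp3, a co-receptor for adrenomedullin, at 16.8, 11.5, 6.02 and 24.2 CPM. Cxcl13 was highest in soft and Ramp3 in stiff with A83-01. Gpc3, a cell-surface proteoglycan, stood at 35.1, 17.9, 5.4 and 14.9 CPM. Fgf18, a growth factor, had 37 and 8 counts on soft and 0 and 33 on stiff, at least 8.97-fold higher there. Ccdc94 had 3 counts in stiff and 35 with A83-01.

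Genes lower on stiff and higher on soft were fewer, 54 against 95 (21 against 37 with at least 10 CPM in 1 library). The actin nucleator gene Cobl stood at 0.896, 2.33, 9.25 and 1.54 CPM and the neuronal membrane protein gene Slitrk6 at 1.85, 3.94, 10.2 and 1.96 CPM. The stiff library was the high one for both. Gja5, a connexin of arterial endothelium, stood at 0.388, 1.19, 4.3 and 1.63 CPM, and Fmn1, a formin that builds actin filaments, at 5.05, 9.79, 8.32 and 3.54 CPM. Mmp8, a neutrophil collagenase, and Itgal, a leukocyte integrin, stood at 0.269, 1.07, 1.27 and 0.589 CPM and at 2.27, 5.85, 0.86 and 0.337 CPM. All 4 of these genes stayed under 10 CPM in every library. Tmem151a, Slc25a13 and Fam50a had differences of −2.60, −2.42 and −1.82.

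**Figure D2:**
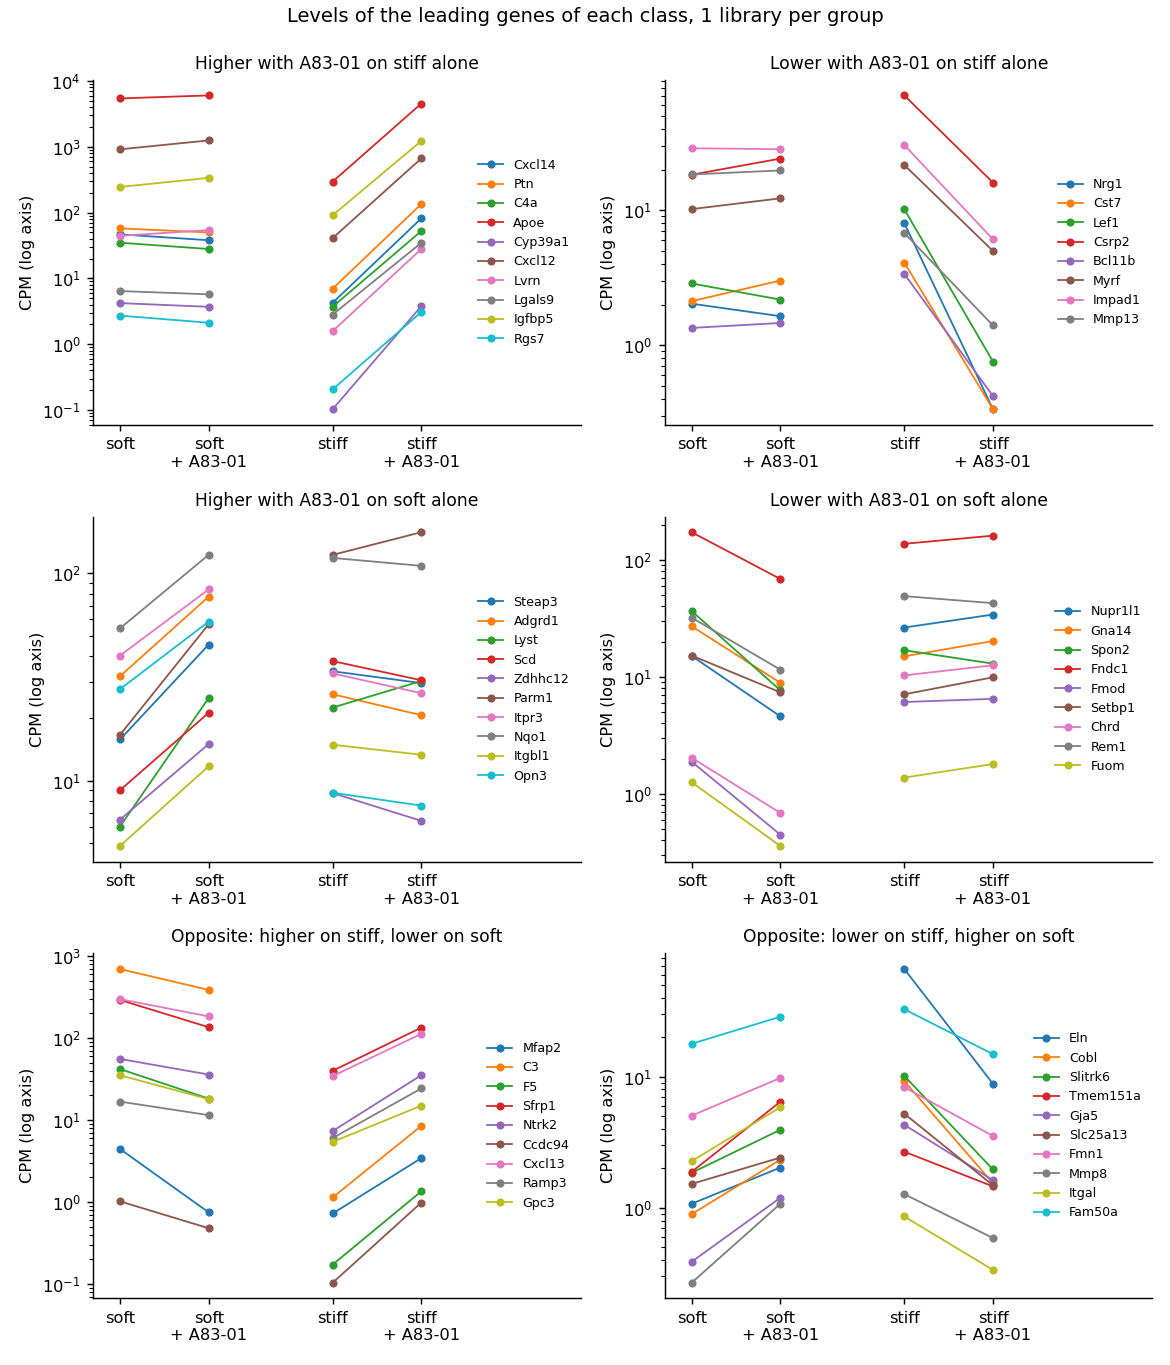
Level in CPM (log axis) of the leading genes of each class in the 4 libraries, with a line joining the library without to that with A83-01 on each matrix; Cpne4, Mmp16 and Fgf18, which had no count in 1 library, are among the genes not drawn. In the top row the lines are flat on soft and steep on stiff, in the middle row the reverse, and in the bottom row they slope one way on soft and the other way on stiff.

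The TGF-beta pathway itself was compared first among functions. Of its 20 target genes, 18 were below 0 (lower with A83-01) on stiff and 17 on soft, with median responses of −1.09 and −0.91. The median difference was −0.10, beside 0.02 over all genes, and turned to 0.168 under total-count scaling and to 0.131 with FPKM. The response was at least 2-fold lower on stiff for 7 of 20 targets (5 under total-count scaling), beside 3.2% of all genes. Lrrc15, a membrane protein of myofibroblasts, stood at 17.9, 0.686, 108 and 0.701 CPM. With the inhibitor it was under 1 CPM on either matrix, from a start on stiff well above that on soft. Tgfbi, a matrix protein named for its induction by TGF-beta, stood at 34.8, 16.8, 591 and 37.9 CPM, a difference of −2.92 (−3.08 to −2.75). Pmepa1, a feedback inhibitor of the pathway, stood at 162, 36.7, 324 and 34.6 CPM. Both A83-01 libraries held nearly the same Pmepa1 level, and the difference of −1.08 (−1.20 to −0.96) lay in the higher start on stiff. Bhlhe40, a circadian transcription factor, stood at 124, 132, 159 and 67.9 CPM, lower with A83-01 on stiff alone. Other targets gave like ratios on both matrices. Ctgf, connective tissue growth factor, stood at 55.4, 14.9, 879 and 234 CPM and was 3.76-fold lower (3.67 to 3.85) and 3.72-fold lower (3.37 to 4.11) on stiff and soft, and Il11, a profibrotic cytokine, differed by 0.19 (−0.92 to 1.12).

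Of 24 ligands, receptors and SMADs, 13 lay above and 11 below 0 in the difference (18 and 6 under total-count scaling). One, Tgfbr3 (betaglycan, a co-receptor), responded at least 2-fold higher on stiff, at 197, 295, 72.1 and 249.9 CPM. Fstl3, a secreted activin antagonist, responded at least 2-fold lower, at 8.72, 4.95, 22 and 4.94 CPM. The stiff library stood apart in both, low for Tgfbr3 and high for Fstl3. Tgfbr2, the type II receptor gene, was 2.04-fold higher on stiff and 1.93-fold higher on soft, at 196, 377, 169.7 and 346 CPM, and the activin subunit gene Inhba differed by −0.90 (−1.16 to −0.66).

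Collagens were lower with A83-01 on both matrices and by more on stiff. Of 16 collagens outside the basement membrane, 12 were at least 2-fold lower on stiff and 8 on soft, beside 609 and 332 of all 13634 genes. Their median responses were −1.82 and −0.94. The difference was below 0 for 12 and its median was −0.60 (−0.323 under total-count scaling, with 11 below 0). Col1a1, the main chain of collagen I, stood at 39250, 17580, 69480 and 19080 CPM, so that the A83-01 libraries lay close together. Col7a1, the anchoring fibril collagen, stood at 142, 86.9, 144 and 23.3 CPM with a difference of −1.91 (−2.04 to −1.79), and Col16a1 at 678, 422, 656 and 164 CPM. In these the stiff A83-01 library alone stood low. Col8a2 and Col11a1 had differences of −0.10 and 0.11, with both genes lower with A83-01 on stiff and soft, 11.9-fold lower and 12-fold lower for Col8a2.

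Enzymes that modify and crosslink collagen had a lower response on stiff for 17 of 18 genes (15 under total-count scaling), with medians of −0.73 on stiff and −0.28 on soft. In 5 of 18 the response was at least 2-fold lower on stiff (2 under total-count scaling), beside 3.2% of all genes. Lox, lysyl oxidase, stood at 754, 373, 467 and 77.7 CPM, 6.01-fold lower (5.77 to 6.27) on stiff and 2.02-fold lower (1.98 to 2.06) on soft. Stiff with A83-01 was the lowest Lox library by far. Plod2, the telopeptide lysyl hydroxylase, stood at 113, 21.6, 178 and 12.8 CPM, with the start on stiff the highest and the end the lowest. The prolyl hydroxylase genes P4ha1 and P4ha2 were lower on stiff alone, at 355, 305, 409 and 174 CPM and at 347, 272, 340.5 and 121 CPM, and P4ha3 differed by −1.13 (−1.26 to −0.99).

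Elastic fibre genes split. Of 12, 2 responded at least 2-fold higher and 4 at least 2-fold lower on stiff (6.21% and 3.2% over all genes), the same counts under total-count scaling. Fbln2, a fibulin, stood at 143, 9.79, 2096 and 17 CPM and was 124-fold lower (114 to 134) on stiff and 14.6-fold lower (13.1 to 16.4) on soft. The stiff library was far above the next. Fbln5, a fibulin needed for elastin assembly, stood at 62.2, 35.9, 175 and 24.7 CPM. Fbn1, the microfibril protein fibrillin, stood at 362, 554, 1360 and 683 CPM, lower on stiff and higher on soft, as for Eln. Efemp1, another fibulin, was the opposite of Fbln2 in direction on both matrices, at 2.93, 41.3, 1.45 and 121 CPM. Its difference was 2.53 (2.03 to 3.08).

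Among 16 matricellular proteins, 5 responded at least 2-fold lower and 1 at least 2-fold higher on stiff (4 and 3 under total-count scaling), beside 3.2% and 6.21% of all genes. Tnn, tenascin N, stood at 13.2, 1.13, 125 and 1.12 CPM, Wisp1, a CCN family protein, at 35.7, 12, 136 and 7.46 CPM, and Postn, periostin, at 526, 293, 1243 and 183 CPM. For each the stiff library was the highest of the 4 and, with A83-01, at or below the soft level. Fn1, fibronectin, moved in opposite directions at high abundance, at 4273, 6412, 5566 and 3771 CPM. Its highest library was soft with A83-01 and its lowest stiff with A83-01. Thbs1, thrombospondin, differed by −1.28 (−1.34 to −1.23), and Thbs4 was higher on stiff alone at 0.119, 0.179, 0.447 and 2.78 CPM. In the basement membrane list, 4 of 19 genes had an at least 2-fold higher response on stiff and 2 a lower one (6.21% and 3.2% over all genes). With FPKM these counts were 3 and 0. Lama1, among the 4, had 0 counts in stiff and 2 with A83-01, too few for a fold. Col18a1, the source of endostatin, stood at 1056, 1071, 1243 and 2605 CPM, with stiff with A83-01 the high library. Col4a5 stood at 14.8, 12.2, 48.4 and 16.3 CPM, where the stiff library alone was high, and Lama3 moved in opposite directions at 6.72, 4.21, 1.03 and 3.84 CPM.

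Matrix proteases and their inhibitors had 5 of 21 genes with an at least 2-fold lower response on stiff and 0 with a higher one (4 and 3 under total-count scaling). Over all genes 3.2% and 6.21% did so. Mmp3, stromelysin, moved in opposite directions at 65.8, 102, 6.02 and 3.45 CPM, as did Mmp10 at 15.7, 25.9, 1.58 and 0.701 CPM. Both were far lower on stiff than on soft without the inhibitor as well. Mmp9, a gelatinase, stood at 2322, 2454, 513 and 263 CPM and Plat, tissue plasminogen activator, at 197, 136, 335 and 94.9 CPM.

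Smooth muscle contractile genes were lower with A83-01 on both matrices, 14 of 17 on stiff and 15 on soft (10 and 13 under total-count scaling). The median response was −0.50 on stiff and −0.35 on soft (−0.221 and −0.341 under total-count scaling), while the median of the per-gene differences was 0.21, with 10 of 17 above 0 (12 under total-count scaling). With the main scaling the difference of the medians and the median of the differences thus differ in sign. Acta2, smooth muscle actin, stood at 271, 88.9, 3691 and 2428 CPM, which is 1.52-fold lower (1.51 to 1.53) with A83-01 on stiff and 3.05-fold lower (2.92 to 3.18) on soft. Tagln, an actin-binding protein, stood at 130, 38.3, 2101 and 1126 CPM, with a difference of 0.86 (0.77 to 0.95). With the inhibitor, both genes on stiff remained above either soft library. Myl9, the myosin light chain, differed by 0.69 (0.59 to 0.80) and Cnn1, calponin, by 0.85 (0.42 to 1.36). Myh11 and Myocd had differences of −0.33 and −0.55. Of 21 YAP and TAZ targets, 11 lay above 0, with a median difference of 0.03 (13 and 0.301 under total-count scaling). Nt5e, an ecto-enzyme that makes adenosine, was higher on stiff alone at 40.9, 46.6, 11.2 and 76.6 CPM, with the stiff library the low one.

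Complement genes stood out among the immune functions. In 10 of 18 the response was at least 2-fold higher on stiff and in 0 lower (12 and 0 under total-count scaling), beside 6.21% and 3.2% over all genes. Medians were 1.16 on stiff and 0.15 on soft. Among the proteins of the classical pathway, C1s stood at 1174, 1350, 122 and 608 CPM and C1r at 2473, 2838, 618 and 1606 CPM. The stiff library was low for both, and neither was 1.41-fold higher with A83-01 on soft. C4a and C4b stood at 34.9, 28, 3.71 and 52.5 CPM and at 28.1, 45.5, 2.62 and 82.7 CPM. Reads can be shared between these nearly identical copies, which leaves the split between them uncertain. Serping1, the inhibitor of that pathway, stood at 975, 1262, 89.5 and 809.6 CPM, a difference of 2.80 (2.74 to 2.87). C6, a part of the membrane attack complex, stood at 39.7, 102, 2.58 and 81 CPM, higher on both but by more on stiff. Cfi, described above, had a difference above 0 because its level was lower on soft and little different on stiff. C2 and Cd55 had differences of 0.00 and 0.07.

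Chemokines had 8 of 17 genes with an at least 2-fold higher response on stiff and 0 with a lower one (8 and 0 under total-count scaling). Over all genes 6.21% and 3.2% did so. The median difference was 1.26, or 0.876 with 2 genes at the bound of their fold and 1 left out. Beyond Cxcl12 and Cxcl14, these included the neutrophil chemokine gene Cxcl1, at 91.2, 109, 2.06 and 6 CPM, the interferon-induced Cxcl10, at 1.34, 3.46, 0.688 and 5.27 CPM, and Ccl20, at 33, 20.4, 0.963 and 3.62 CPM, which was lower on soft. Cxcl1 and Ccl20 on stiff remained far below soft even with A83-01. The monocyte chemokine gene Ccl2 stood at 446, 484, 46.2 and 70 CPM, a difference of 0.48 (0.38 to 0.58), and Cxcl6 differed by 0.11 (−0.64 to 0.87), with an interval including 0. Among 16 cytokines and inflammatory enzymes, with medians of 0.05 on stiff and 0.32 on soft but a median difference of 0.34, 5 had an at least 2-fold higher response on stiff and 2 a lower one. Il34, a growth factor for macrophages, stood at 13.4, 16.9, 14.4 and 74.4 CPM, with stiff with A83-01 the high library. Ptgs2, the inducible prostaglandin synthase, stood at 64.1, 58.6, 3.89 and 0.898 CPM, lower on stiff alone, while Ptges, which acts after it, stood at 46, 91.9, 1.58 and 9.4 CPM, higher on both. Slpi and Lcn2, secreted innate immune proteins, stood at 318, 477, 0.482 and 6.57 CPM and at 1205, 1491, 4.3 and 19.2 CPM. With A83-01 both remained far below their level on soft.

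Interferon-stimulated genes leaned the same way. Of 20, 19 had a difference above 0 and 7 responded at least 2-fold higher on stiff (10 under total-count scaling), beside 6.21% of all genes. Medians were 0.98 on stiff and 0.20 on soft. Bst2, which tethers enveloped viruses, stood at 13.9, 15.4, 11.9 and 34.6 CPM, with stiff with A83-01 apart from the other 3. Gbp2, a guanylate-binding protein, stood at 18, 29.4, 9.8 and 35.7 CPM and Irf7 at 3.62, 5.43, 1.69 and 5.25 CPM. The signal transducer Stat2 had a difference of 0.18. Of 10 antigen presentation genes, 9 were above 0 and 3 were higher on stiff alone: the immunoproteasome genes Psmb9 and Psmb10, at 6.9, 9.52, 4.44 and 14.8 CPM and at 14.3, 12.7, 10.9 and 23.7 CPM, and the regulator Nlrc5, at 0.926, 0.925, 0.31 and 1.18 CPM. Macrophage and leukocyte markers moved alongside: 8 of 11 had a difference above 0. Summed over 13 genes, these markers stood at 186, 230, 152 and 213 CPM, and their part in the values above was not tested. The macrophage marker Adgre1 stood at 24.5, 37.4, 0.447 and 2.38 CPM, far lower on stiff than on soft.

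**Figure D3:**
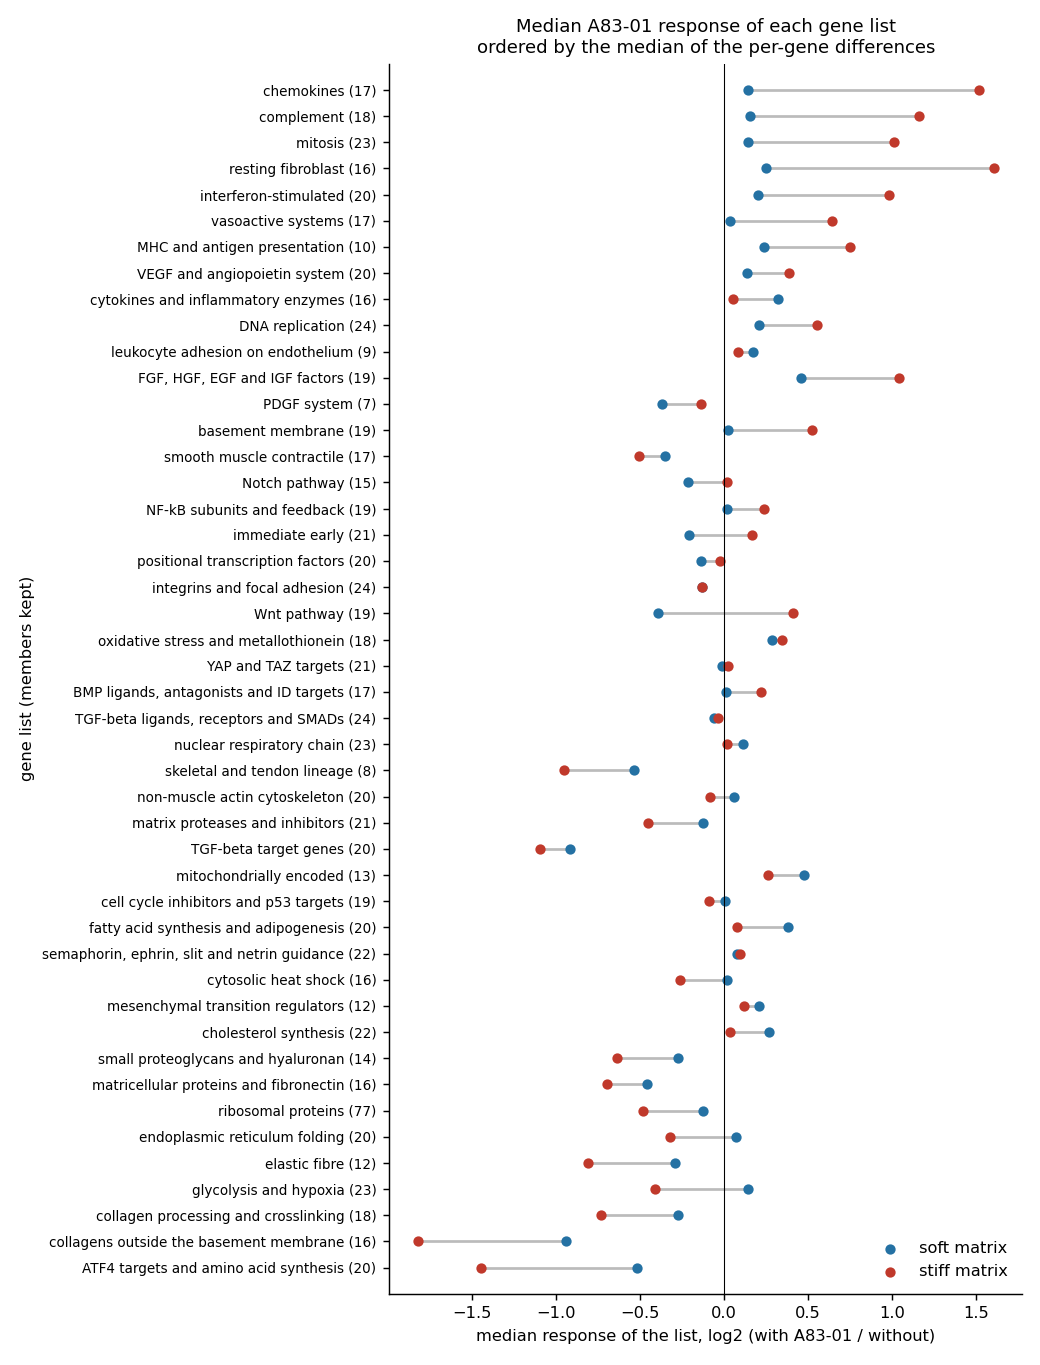
Median response to A83-01 of each function list with at least 5 genes (cell type marker lists not drawn) on soft (blue) and stiff matrix (red), log2 with against without A83-01, with the number of members in parentheses and lists ordered by their median difference. Chemokines, complement and mitosis lie at the top with medians near 0 on soft and above 1 on stiff, and ATF4 targets at the bottom with −1.45 on stiff and −0.52 on soft.

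Mitotic genes were higher with the inhibitor on stiff and by less on soft. On soft 20 of 23 lay above 0, with a median response of 0.14. All 23 had a difference above 0, also under total-count scaling, with a median of 0.90. On stiff 13 of 23 were at least 2-fold higher with A83-01, and on soft 0, beside 1064 and 297 of all 13634 genes. The response was at least 2-fold higher on stiff in 5 (18 under total-count scaling), beside 6.21% of all genes. Cenpf, a kinetochore protein, stood at 26.2, 36.8, 25.7 and 79 CPM, Tpx2, a spindle assembly factor, at 45.4, 50, 64.3 and 142 CPM and the proliferation marker Mki67 at 85.7, 133, 132 and 345 CPM. All 3 were highest in stiff with A83-01. Cdk1, the mitotic kinase, stood at 31.7, 37, 45.5 and 82.2 CPM, a difference of 0.63 (0.48 to 0.78). DNA replication genes differed by less: 22 of 24 were above 0, the median was 0.34, and 1, the cyclin gene Ccne2, passed 2-fold (2 under total-count scaling). Cdkn1a, the cell cycle inhibitor p21, was lower on stiff alone, at 106, 106, 123 and 50.8 CPM. Its low library was stiff with A83-01. Cyclin D, Ccnd1, stood at 38, 66.9, 13.1 and 46.1 CPM, higher on both, and the antiproliferative Btg2 at 32.4, 39, 32.3 and 83.8 CPM, higher on stiff alone.

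Genes controlled by ATF4, the transcription factor of the amino acid and integrated stress response, had the lowest median difference of the function lists. All 20 had a difference below 0 (19 under total-count scaling), with a median of −0.64 (−0.372) and medians of −1.45 on stiff and −0.52 on soft. The response was at least 2-fold lower on stiff in 6 (3 under total-count scaling), beside 3.2% of all genes. Since these members lay to one side together, their promoters were searched for TGATGNAA, the core shared by C/EBP-ATF response elements, on both strands of the 250 bases before each listed start in the RefSeq promoter table (GRCr8). This motif was chosen after the values were seen, and 7 others (CAGAC of SMAD proteins, CATTCC of TEAD factors, CCAAT of NF-Y, GGANTTTCC of NF-kB, TGANTCA of AP-1, TTTGAA of mitotic genes and the CArG box of SRF) were searched over the same windows and all gene lists. TGATGNAA was found in 4 of 19 windows of the 18 members with an entry, or 21.1%, beside 3.4% of all 33469 windows. The list is of genes under ATF4, so a raised share could be foreseen whatever the response. All 20 members had a difference below 0, with or without a match, so its sign cannot tell members with a match from the others. Whether the motif bears on the size of the difference was not tested. The 4 windows are given 5′ to 3′ with the match in capitals, since they belong to genes with a difference below 0; other members had no match in these windows.
Chac1 (chr3:126795881-126796130, plus strand): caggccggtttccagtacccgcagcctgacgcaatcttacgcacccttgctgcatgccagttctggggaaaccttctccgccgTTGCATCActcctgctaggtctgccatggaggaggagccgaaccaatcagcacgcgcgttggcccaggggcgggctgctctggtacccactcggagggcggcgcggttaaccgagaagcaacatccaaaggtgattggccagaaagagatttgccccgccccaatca
Pycr1 (chr10:106420813-106421062, minus strand): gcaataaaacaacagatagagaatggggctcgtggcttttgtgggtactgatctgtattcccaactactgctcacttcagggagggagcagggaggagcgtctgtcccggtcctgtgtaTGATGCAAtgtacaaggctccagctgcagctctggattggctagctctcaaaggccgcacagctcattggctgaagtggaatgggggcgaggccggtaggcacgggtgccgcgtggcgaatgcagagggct
Slc7a1 (chr12:11664238-11664487, plus strand): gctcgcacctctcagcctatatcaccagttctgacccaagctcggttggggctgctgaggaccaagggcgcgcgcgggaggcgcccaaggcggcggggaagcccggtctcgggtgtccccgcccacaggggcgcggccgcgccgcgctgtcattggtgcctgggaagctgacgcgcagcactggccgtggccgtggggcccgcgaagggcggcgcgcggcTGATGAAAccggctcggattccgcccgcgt
Trib3 (chr3:161275534-161275783, minus strand): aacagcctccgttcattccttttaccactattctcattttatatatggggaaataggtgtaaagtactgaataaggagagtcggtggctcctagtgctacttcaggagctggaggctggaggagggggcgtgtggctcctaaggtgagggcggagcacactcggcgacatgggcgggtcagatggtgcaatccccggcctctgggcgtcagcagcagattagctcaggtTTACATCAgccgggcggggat

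In the same 19 windows CAGAC was found in 42.1%, beside 42.9% of all windows, and CCAAT in 42.1%, beside 34%. CATTCC was found in 2 windows (12.1% of all) and the AP-1 motif in 2 (6.34% of all), and the other 3 motifs in none. Among other lists with at least 80% of genes in the table, endoplasmic reticulum folding genes had CCAAT in 88.9% of 18 windows. VEGF and angiopoietin genes had it in 17.6% of 17, and NF-kB subunits and feedback genes had GGANTTTCC in 25% of 16, beside 1.08% of all windows. These lists were picked after the shares were seen. A match is a description of letters, not a site shown to be used. TGATGNAA lay 14 to 21 bases before the start in Trib3, 23 to 30 in Slc7a1, 124 to 131 in Pycr1 and 160 to 167 in Chac1. Trib3, a pseudokinase that restrains ATF4, stood at 28.8, 10.8, 104 and 9.65 CPM and was 10.7-fold lower (9.61 to 12.1) on stiff and 2.66-fold lower (2.36 to 3.01) on soft. Chac1, which degrades glutathione, stood at 29.3, 28.6, 45.1 and 13 CPM, lower on stiff alone. Both A83-01 levels of Trib3 were alike, whereas for Chac1 stiff with A83-01 alone was low. Pycr1, an enzyme of proline synthesis, stood at 15.7, 7.13, 20.7 and 6.34 CPM, a difference of −0.56 (−0.88 to −0.26), and the arginine transporter gene Slc7a1 at 59.1, 46.9, 71.6 and 29.9 CPM, a difference of −0.93 (−1.07 to −0.78). Of the members with no match, the cystine transporter gene Slc7a11 stood at 7.8, 7.31, 12.3 and 3.9 CPM and the leucine transporter gene Slc7a5 at 98.6, 51, 249 and 64.2 CPM. Asns, asparagine synthetase, stood at 128, 71.4, 206 and 58.1 CPM. Atf4 itself stood at 379, 341, 480.1 and 269.8 CPM, a difference of −0.68 (−0.73 to −0.63). For the classes as a whole the promoter table held 55.9% to 69% of genes, under the 80% needed, so a comparison of motif shares between classes would be void and none is given.

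Most glycolysis and hypoxia genes were slightly higher with A83-01 on soft and slightly lower on stiff. On soft 18 of 23 lay above 0 and on stiff 21 lay below (14 under total-count scaling), with medians of 0.14 and −0.41. The difference was below 0 for 20 (19 under total-count scaling). Slc16a3, the lactate exporter gene, stood at 292, 308, 122 and 60.4 CPM, Pkm, pyruvate kinase, at 215, 238, 227 and 124 CPM, and Slc2a1, the main glucose transporter gene, at 184, 182, 93 and 46.9 CPM. The lowest library for each was stiff with A83-01. Vegfa, the endothelial growth factor and a hypoxia target, stood at 336, 282, 159 and 50.4 CPM, 3.14-fold lower (2.98 to 3.32) on stiff and 1.19-fold lower (1.16 to 1.23) on soft. Adm, adrenomedullin, also a hypoxia target, went the other way, at 121, 250.4, 20.7 and 153 CPM, with a difference of 1.83 (1.70 to 1.96).

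Genes of protein synthesis and folding shifted by less, and how many lay below 0 moved with the scaling. The difference was below 0 for 77 of 77 ribosomal protein genes (55 under total-count scaling), with a median of −0.40 (−0.122). One passed 2-fold, Rps12, at 267, 278, 496 and 239 CPM. Near-identical copies of ribosomal protein genes make single counts uncertain. Of 20 endoplasmic reticulum folding genes, 19 were below 0 (13 under total-count scaling), with a median of −0.43 and 0 past 2-fold. Of 22 cholesterol synthesis genes, 20 were below 0 (12 under total-count scaling; with FPKM 10), and 0 passed 2-fold. The 13 mitochondrially encoded genes were higher with A83-01 on both matrices, and their median difference was −0.11 (0.16 under total-count scaling).

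**Figure D4:**
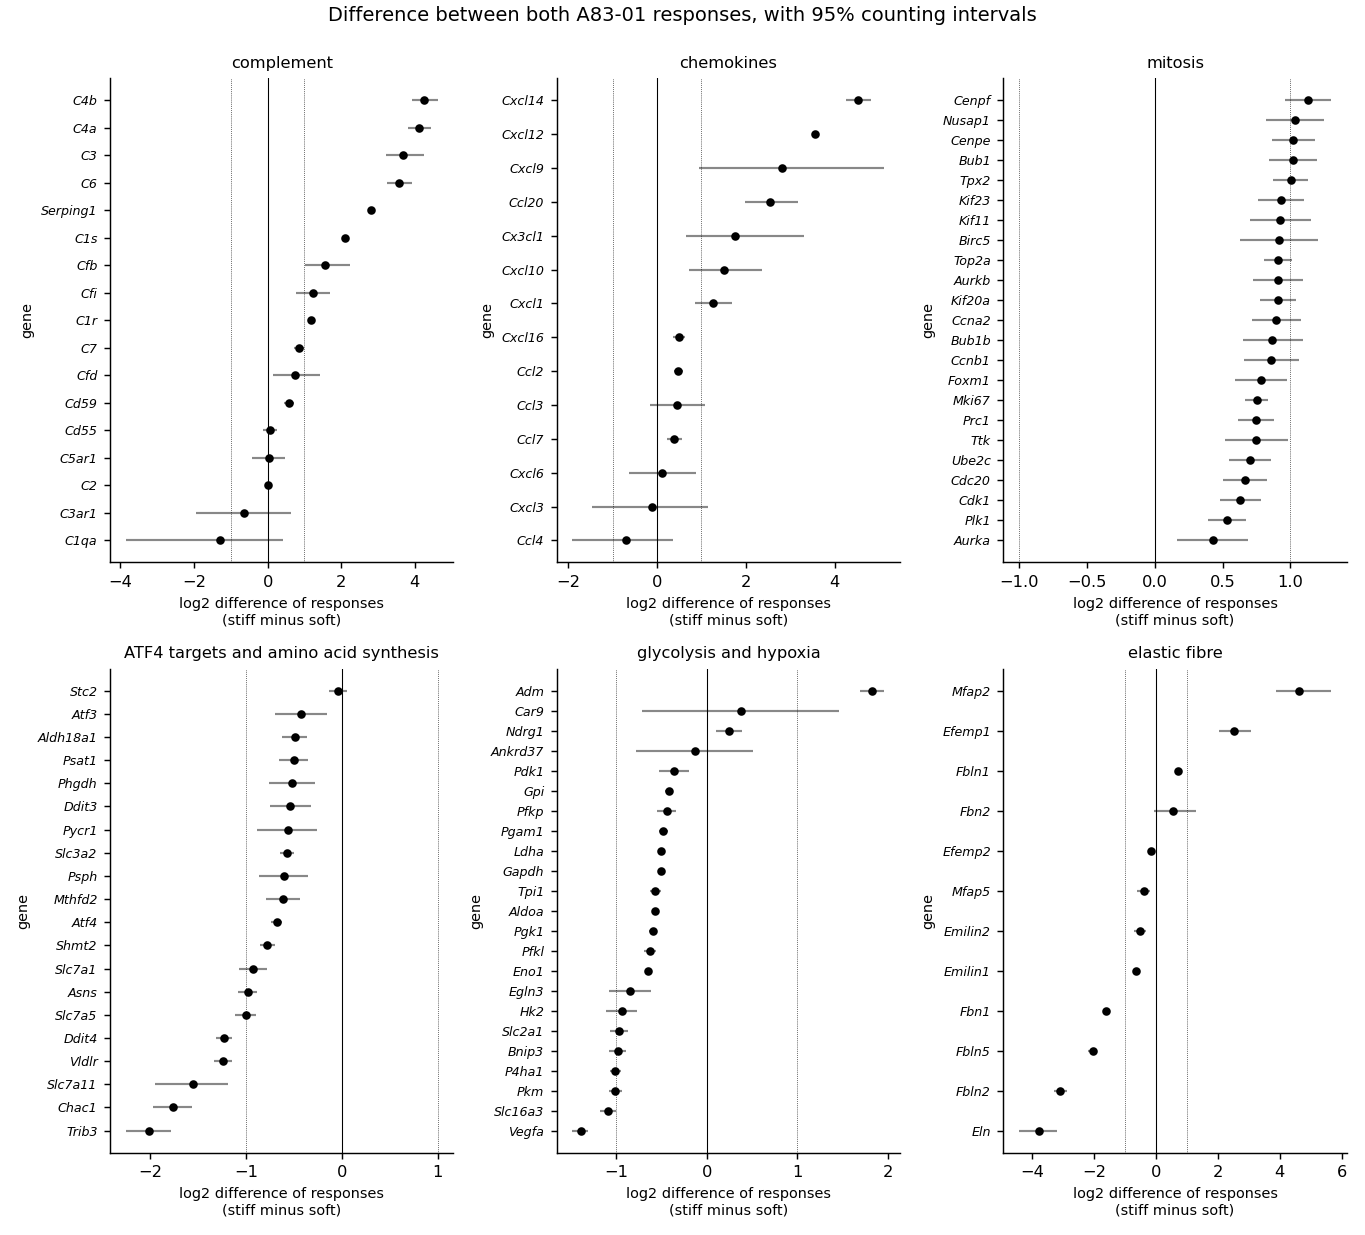
Difference between both A83-01 responses (log2, stiff minus soft) of each member of 6 gene lists, with 95% counting intervals; dotted lines mark 2-fold, and members with no count in 1 library are among those left out. All 23 mitotic genes lie right of 0 and all 20 ATF4 targets left of it, while elastic fibre genes run from −3.78 (Eln) to 4.63 (Mfap2).

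Growth factor genes held some of the widest differences. Among 19 FGF, HGF, EGF and IGF factors, 6 had an at least 2-fold higher response on stiff and 2 a lower one. Fgf7, keratinocyte growth factor, stood at 143, 127, 19.9 and 47 CPM, higher on stiff alone, and Fgf10 at 13.1, 29.9, 0.998 and 7.1 CPM, higher on both. Igf1, insulin-like growth factor, stood at 4.54, 10.7, 2.55 and 28.3 CPM. Igf1 was lowest in stiff and highest in stiff with A83-01. Fgf2 stood at 0.866, 1.73, 1.27 and 0.757 CPM, with a response at least 2-fold lower on stiff. Over all genes these shares were 6.21% and 3.2%. In the Wnt list, 3 of 19 had an at least 2-fold higher response on stiff and 2 a lower one. Besides Sfrp1 and Lef1, the receptor gene Fzd2 stood at 130, 57.9, 401 and 63.4 CPM and Wnt5a moved in opposite directions at 47.2, 32.6, 36.3 and 55.8 CPM. In the BMP list, 3 of 17 had an at least 2-fold higher response on stiff and 2 a lower one (6.21% and 3.2% over all genes). Grem1, a secreted BMP antagonist, stood at 48.1, 16.5, 84.9 and 9.57 CPM, and Bmp4 moved in opposite directions at low level, at 0.657, 0.149, 0.654 and 1.18 CPM. Id1 and Id3, direct BMP targets, were higher with A83-01 on both, with differences of 0.59 and 0.19. Other members of the list went both ways, with differences of 0.595 for Id4, −0.567 for Id2, −0.708 for Hey1 and −0.162 for Smad6. The chondrogenic factor gene Sox9 stood at 2.15, 0.955, 8.84 and 0 CPM, at least 105-fold lower on stiff against 3 counts, and 2.25-fold lower (1.47 to 3.53) on soft.

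Vessel genes leaned toward a higher response on stiff. Of 18 endothelial markers, 16 had a difference above 0 (17 under total-count scaling), with a median of 0.57, and 2 passed 2-fold (7 under total-count scaling). Cdh5, VE-cadherin, stood at 869.6, 886, 729.6 and 1325 CPM, Tie1, a receptor kinase, at 234, 259, 238 and 447 CPM and Egfl7, a secreted endothelial protein, at 62.4, 69.3, 42.4 and 103 CPM. Each was highest in stiff with A83-01, and both soft libraries lay close together. Sox17, an arterial endothelial factor, stood at 19.9, 13.9, 20.9 and 36 CPM, in opposite directions. Vwf, von Willebrand factor, was lower with A83-01 on both, at 126, 48, 31.2 and 18.6 CPM. The summed endothelial markers stood at 2674, 2642, 2257 and 3532 CPM, the highest again with A83-01 on stiff, and its part in the other values was not tested. Of 15 pericyte and mural markers, 10 were above 0 and 3 responded at least 2-fold higher on stiff (13 and 6 under total-count scaling), beside 6.21% of all genes. Rgs5, a G-protein regulator of pericytes, stood at 21.9, 23.2, 83.4 and 219.7 CPM, Notch3, their Notch receptor, at 365, 345, 498 and 1039 CPM, and Gja4, a vascular connexin, at 16.3, 11.6, 20.2 and 40.1 CPM. Here too the highest library was stiff with A83-01. The mural markers Foxs1 and Heyl, the latter also in the Notch list, gave like ratios on both matrices, with Heyl at 106, 46, 235 and 89.6 CPM. Among 17 vasoactive genes, 4 had an at least 2-fold higher response on stiff and 0 a lower one (7 and 0 under total-count scaling). These were Adm, Ramp3, the angiotensin receptor gene Agtr1a, at 42.7, 52.8, 21.7 and 69.3 CPM, and Ace, at 0.568, 0.746, 0.378 and 1.77 CPM.

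Of 16 genes of resting fibroblasts, 15 were above 0 on stiff and 11 on soft, with a difference above 0 for 14. In 7 the response was at least 2-fold higher on stiff (10 under total-count scaling), beside 6.21% of all genes. Medians were 1.60 on stiff and 0.25 on soft. Cd34, a surface sialomucin, stood at 119, 115, 145 and 353 CPM, higher on stiff alone, and Abca8a, a transporter, at 14.1, 24.9, 12.2 and 49 CPM. Igfbp4, an insulin-like growth factor binding protein, moved in opposite directions, at 1039, 562, 309 and 438 CPM. Clec3b and Scara5, markers of adventitial fibroblasts, were higher on both, with Clec3b at 4.09, 39, 7.74 and 38.4 CPM. Fibroblast markers as a list, of which 5 are also in this group, had 7 of 14 above 0 (9 under total-count scaling). Their sum over 15 genes stood at 15610, 26480, 5022 and 9248 CPM. Dcn, decorin, was a large part of that sum, at 11520, 21950, 1442 and 5279 CPM. Its response was 3.66-fold higher (3.62 to 3.7) on stiff and 1.91-fold higher (1.9 to 1.91) on soft. Schwann cell and nerve markers had 5 of 7 with an at least 2-fold higher response on stiff, all under 10 CPM, while Ncam1 went the other way at 42.9, 19.3, 282 and 52.9 CPM. Sox10, the defining glial factor of that list, stood at 1.79, 0.985, 1.27 and 2.86 CPM.

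Some further functions are given by their counts, to be read beside 6.21% of all genes with a higher and 3.2% with a lower response on stiff. Of 20 genes of the VEGF and angiopoietin system, 2 had an at least 2-fold higher response on stiff and 1 (Vegfa) a lower one (7 and 1 under total-count scaling). In the PDGF system 0 of 7 did either way, among mesenchymal transition regulators 0 of 12, and among 23 nuclear genes of the respiratory chain 0. Of 24 integrin and focal adhesion genes, 2 responded at least 2-fold higher on stiff (4 under total-count scaling). Among 19 NF-kB subunits and feedback genes, 16 had a difference above 0, and 1 passed 2-fold (3 under total-count scaling). Of 15 Notch pathway genes 1 passed 2-fold, Notch3, already given among mural markers.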

How the data were processed

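The mRNA of 4 cultures was sequenced as 1 library each, and groups were taken from the sample titles. The authors deposited whole-number read counts per gene, not normalised, and a second deposited table of FPKM values per gene. The tools HISAT2 and edgeR and the build Rnor_6.0 appear, with no role, per the submitters' processing notes; counter and annotation: not given in the sources used here. Strand-marking is not mentioned per the labels' protocols, so overlapping genes on opposite strands may share reads, and without molecular identifiers PCR copies may narrow the intervals.

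Counts were scaled with TMM factors (edgeR 4.0.16 in R 4.3.3), and log2 values carry a prior count of 2, which pulls differences of scarce genes toward 0. Genes with at least 1 CPM in at least 1 library were kept. Intervals at 95% are conditional binomial (Clopper-Pearson) for each response and by the delta method for the difference. A check on simulated counts held counting error alone, which the intervals assume. It therefore shows only that they were computed as intended, and says nothing of variation between libraries. Ratios against 0 counts use a floor of 3 counts in that library. The 2 by 2 layout leaves no residual degrees of freedom, so no test was made and no p-value is given. Class thresholds were 2-fold for a response and for a difference, and 1.41-fold for a level response. The members, the 55 gene lists and the 8 motifs were chosen with earlier results of these data known. Named genes were, per class and direction, the 10 with a symbol and the largest nearer interval bound, and per list the 3 largest by that bound, members in a class and defining markers; further list members are named as context, chosen after their values were seen. A few genes that the rule names are not reported here. In the table, 1563 entries are unnamed assembled transcripts, which stayed in library sizes and counts. Promoter windows came from RefSeq (GRCr8). Alternatives were other scalings, filters, prior counts, thresholds and FPKM with a pseudocount of 0.1; DESeq2 1.42.0 gave size factors only.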

Additional observations from a re-analysis of the deposited data

Results flagged for a closer look

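The 10 leading genes in each opposite class were singled out because the level moved one way with A83-01 on stiff and the other way on soft. The difference between both responses was not tested, since each group is 1 library. Log2 differences (stiff minus soft) of genes higher on stiff and lower on soft were 4.63 for Mfap2, 3.68 for C3, 3.79 for F5, 2.85 for Sfrp1, 2.89 for Ntrk2, 3.67 for Ccdc94, 2.41 for Cxcl13, 2.54 for Ramp3 and 2.42 for Gpc3. The fitted value of 5.98 for Fgf18 depends on the prior count, because stiff had 0 counts. Those of genes lower on stiff and higher on soft were −3.78 for Eln, −3.86 for Cobl, −3.40 for Slitrk6, −2.60 for Tmem151a, −2.85 for Gja5, −2.42 for Slc25a13, −2.17 for Fmn1, −2.82 for Mmp8, −2.55 for Itgal and −1.82 for Fam50a.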

How the results depend on the processing

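Total-count scaling gave 1503 genes with a response higher on stiff and 264 lower, 790 higher and 76 lower on stiff alone, and 33 opposite and lower on stiff. FPKM values gave 1348 and 233, 738 and 75, and 30 in the same order. With at least 10 CPM in 1 library, these were 378 and 210, 192 and 75 on stiff alone, 11 and 17 on soft alone, 37 and 21 opposite, and 83 and 119 on both. At 4-fold they were 201 and 89, 60 and 26, 1 and 4, 16 and 11, and 32 and 37. Without a filter, 63 were lower on soft alone. A level response of at most 0.25 on the log2 scale, chosen after seeing the data, gave 230 and 90 on stiff alone and 18 and 19 on soft alone. Of the 1282 genes that differed, 1109 also did so with total-count scaling, 1048 with FPKM and 1249 with DESeq2 size factors. The median difference turned to −1.26 for Schwann cell and nerve markers at the 10 CPM minimum and to 0.0435 for skeletal muscle markers without a filter. The −1.26 is the difference of Ncam1 alone, the only member of its list left at that minimum. List medians near 0, such as those of TGF-beta targets (0.168) and mitochondrially encoded genes (0.16), turned sign with total-count scaling. Of the differences of 201 named genes, 118 moved beyond their counting interval with total-count scaling and 134 with FPKM, against 3 with DESeq2 size factors, 7 with responses centred on their median and 0 with either other prior count. No paired analysis was possible because each group has 1 library, and for the same reason no library could be left out. Depth limits the scarce genes: 3 counts allow up to 0.103 CPM.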
